A study of Rattus norvegicus with 6 samples.

Results

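The Hedgehog signalling genes of the rat renal cortex were followed across 6 arrays. They were 9 genes, namely the ligand genes Ihh, Shh and Dhh, the receptor gene Ptch1, the transducer gene Smo, the transcription factor genes Gli1, Gli2 and Gli3, and the gene of the ligand-binding inhibitor Hhip. Their 25 probes were found among 61537 non-control probes, which stood for 45433 genes or unnamed accessions, by matching each probe's accession to the RefSeq symbol. The genes were proposed with the difference between these same arrays known, most of all that of Ihh, so that every member's difference is a description and carries no test.

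Both groups were male Sprague-Dawley rats, purchased at 5 weeks of age, on a basal diet. In the vehicle group 3 animals received corn oil, and in the other group 3 animals received phenylbutazone, a cyclooxygenase inhibitor of the non-steroidal anti-inflammatory class, at 200 mg/kg/day, each for 4 weeks. The renal cortex holds the glomeruli and most of the proximal tubules. Its total RNA was labelled with the dye Cy3, and each animal had its own one-colour Agilent array. Levels are log2 values of the processed spot intensity relative to the array's 75th percentile, so that 0 is the 75th percentile of that array and 1 unit is a 2-fold step.

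Hedgehog ligands are secreted signals that bind Ptch1. Without ligand Ptch1 holds back Smo, and with ligand Smo enters the primary cilium and turns the Gli factors from repressors into activators. Ptch1, Gli1 and Hhip are themselves transcribed in responding cells, so their RNA serves as a readout of the pathway, with Ptch1 and Hhip acting back as brakes on it. In the adult kidney Ihh RNA is made by proximal tubule epithelium, whereas Gli1 marks stromal cells around vessels.

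The promoter of Ptch1 is shown because this gene is the classical direct target of the Gli factors and carried their consensus motif. The motif TGGGTGGTC, or GACCACCCA on the other strand, was searched in the 250 bases before the start of each gene in RefSeq's assembly GRCr8, among entries that held 6 of the 9 members (Dhh, Ptch1, Smo, Gli2, Gli3 and Hhip). It was found in 1 of them, Ptch1, and in 113 of all 33469 promoters (0.338%). Of 49 other pathway genes with an entry, 1 held it, Ulk3, which encodes a kinase acting on Gli factors. The Ptch1 sequence lies on the plus strand at chr17:1555321-1555570, reads 5′ to 3′ up to the base before the start, and has the motif in capitals, from 172 to 164 bases before the start. A match of letters is a description of the sequence, not evidence of a bound site.
Ptch1 promoter: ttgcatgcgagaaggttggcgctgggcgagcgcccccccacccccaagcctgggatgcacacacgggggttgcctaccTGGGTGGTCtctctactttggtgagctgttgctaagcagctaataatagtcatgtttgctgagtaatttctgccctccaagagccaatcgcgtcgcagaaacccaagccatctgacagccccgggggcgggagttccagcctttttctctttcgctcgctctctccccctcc

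The scanner software called 65.2% to 68.4% of an array's non-control probes well above background, with a 75th percentile of intensity of 891.2 to 1002.6. Vehicle arrays 1 and 2 lay on slide 1, while vehicle array 3 and the 3 phenylbutazone arrays lay on slide 2, scanned on another day, so that vehicle 3 is the only vehicle array on the slide of the treated animals. Of 29938 genes tested with limma, 0 had an adjusted p under 0.05, whereas the unadjusted p was under 0.05 for 3657 (12.2%). Of these tested genes 12155 had a symbol, and the rest were unnamed accessions, each counted as a gene in every share of all genes. Early proximal tubule markers, such as the phosphate transporter gene Slc34a1 and the glucose transporter gene Slc5a2, were measured in 8 of 8 cases, with summed intensities of 927 to 950 times the 75th percentile in vehicle and 957 to 1010 in phenylbutazone. With 3 arrays per group, the number of arrays limits the precision of each value.

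Ihh, which encodes the ligand Indian hedgehog, was lower after phenylbutazone, by about 2-fold on its brightest probe. Of its 5 probes, all of them well above background on 6 of 6 arrays, 4 differed by -1.09 to -0.81 log2 units, and 1 by -0.21. Probe 1 (A_43_P15154), the brightest, read 1.69, 1.82 and 1.82 log2 units in vehicle 1, 2 and 3, against 0.91, 0.53 and 0.86 in phenylbutazone 1, 2 and 3. The groups lay apart on this probe, with the lowest vehicle animal well above the highest treated one and the 3 vehicle animals close together. In unscaled intensities this probe read 3072, 3534 and 3261 in vehicle against 1669, 1386 and 1763 in phenylbutazone. The difference was -1.01 ± 0.13 log2 units (SE, n = 3 per group), that is 2.02-fold lower, from group means of 1.78 ± 0.07 and 0.76 ± 0.20 (SD). Against vehicle 3 alone, the array that shares the slide of the treated animals, it was -1.06.

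Ihh probe 2 (A_44_P638654) read 0.41, 0.59 and 0.83 in vehicle 1, 2 and 3, against -0.15, -0.37 and -0.09 in phenylbutazone 1, 2 and 3. Again each treated animal lay below each vehicle animal, and the difference was -0.81 ± 0.15 (1.75-fold lower). Probe 3 (A_44_P306554), with intensities of 54.6 to 168, read -3.07, -3.11 and -2.46 in vehicle and -3.82, -4.14 and -3.95 in phenylbutazone. The groups lay apart here too, with a difference of -1.09 ± 0.20 (2.13-fold lower), but vehicle 3 stood 0.63 above the mean of vehicle 1 and 2. The difference was -1.51 against vehicle 3 alone and -0.56 with normexp background correction. Normexp here adds an offset of 50 to each intensity, which by itself shrinks log2 differences of probes as dim as this one. Probe 4 (A_64_P065081) read -3.55, -3.15 and -2.77 in vehicle and -3.51, -4.26 and -4.34 in phenylbutazone. On it phenylbutazone 1 lay within the vehicle range, and the difference was -0.88 ± 0.29, or -0.35 with normexp. Probe 5 (A_42_P666128) read -3.68, -3.89 and -3.05 in vehicle and -3.62, -4.23 and -3.40 in phenylbutazone, so that the groups overlapped widely and the difference of -0.21 ± 0.30 was within its error. Vehicle 3 stood above the mean of vehicle 1 and 2 on probes 2, 4 and 5 as well, by 0.33, 0.58 and 0.73. Against vehicle 3 alone probes 2, 4 and 5 differed by -1.03, -1.26 and -0.70. Probes 3, 4 and 5 had intensities of at most 168, and why probe 5 stands nearer to 0 was not tested. All 5 probes share the accession of Ihh and the same 6 RNA samples, so they are not replicates of the treatment.

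**Figure D1:**
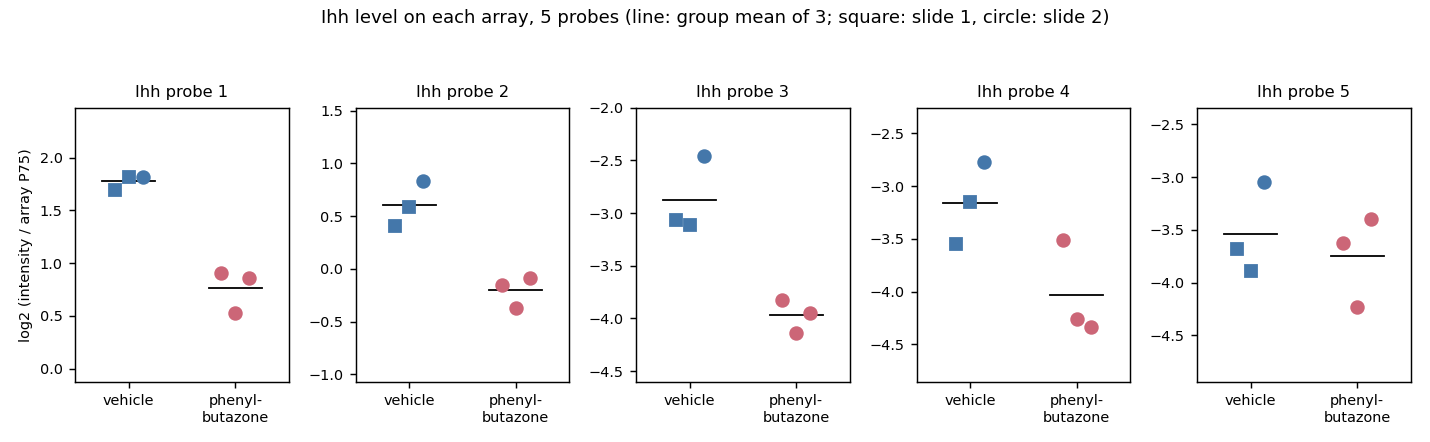
Level of the 5 Ihh probes on each array (log2 of intensity over the array's 75th percentile; each panel spans the same number of log2 units), with squares for slide 1, circles for slide 2 and lines for the mean of 3 arrays. Probes 1, 2 and 3 separate the 3 treated from the 3 vehicle animals, with differences of -1.01, -0.81 and -1.09, while probes 4 and 5 overlap.

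Groups that did not overlap were common on these arrays, and 20.3% of the 41006 probes tested, those well above background on at least 3 arrays, showed this, 9.08% with phenylbutazone below vehicle. Of the 16 member probes tested 4 did so, all lower in phenylbutazone, namely Ihh probes 1, 2 and 3 and the measured probe of Shh. As the members were chosen on this contrast, nothing is read from that share. By size, the difference of Ihh probe 1 exceeded that of 98.4% of all probes tested, and those of probes 2 to 5 exceeded 97.0%, 98.7%, 97.5% and 62.2%. Ihh was chosen on this same contrast, so these ranks are a description too.

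Among the other ligand genes Shh, which encodes Sonic hedgehog, was near the background, though probe 1 was called well above it on 3 of 3 arrays of each group. Its probe 1 read -4.56, -4.67 and -3.96 in vehicle 1, 2 and 3, against -4.82, -5.10 and -4.86 in phenylbutazone 1, 2 and 3. The groups lay narrowly apart, and the difference was -0.53 ± 0.21 (1.45-fold lower). It was -0.97 against vehicle 3 alone, -0.31 without vehicle 3, and -0.18 with normexp. Shh probe 2 was well above background on 0 of 6 arrays, so Shh has no second measured probe.

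Dhh, which encodes Desert hedgehog, showed no common direction over its 3 probes. Probe 1, the brightest, read -1.79, -1.64 and -1.51 in vehicle and -1.88, -1.61 and -1.70 in phenylbutazone, with a difference of -0.08 ± 0.12. Probes 2 and 3 stood on the other side of 0, at 0.21 ± 0.25 and 0.56 ± 0.30. Probe 3 was well above background on 1 of 3 vehicle and 2 of 3 phenylbutazone arrays, and the groups overlapped on all 3 probes.

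Ptch1 encodes the Hedgehog receptor and is the readout gene whose promoter is printed above. Its probe 1 read -2.87, -2.95 and -2.82 in vehicle 1, 2 and 3, against -2.85, -3.03 and -3.09 in phenylbutazone 1, 2 and 3. Probe 2 read -3.83, -3.54 and -3.59 in vehicle and -3.73, -3.56 and -3.52 in phenylbutazone. The groups overlapped on both, with differences of -0.11 ± 0.11 and 0.05 ± 0.12, each no larger than its error, where Ihh probe 1 differed by -1.01. Ptch1 probe 3 was near the detection limit: it was well above background on 2 of 3 vehicle arrays and on 0 of 3 phenylbutazone arrays, reading -4.57, -6.15 and -5.11 against -6.65, -7.76 and -6.52. Only an approximate bound can be given for it, 1.22-fold higher in vehicle. It sets the vehicle mean, in which vehicle 2 was not called, against a floor on each treated array. The floor is the dimmest level called well above background there or, if higher, the probe's reading. This is not a strict limit, since Dhh probe 3 read above the floor, at -5.33, in phenylbutazone 1 without being called.

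Gli1, a transcription factor gene that is itself switched on by the pathway, was near background throughout. Probe 1 read -5.52, -4.75 and -5.12 in vehicle and -5.76, -5.07 and -5.18 in phenylbutazone, well above background on 2 of 3 arrays of each group. The groups overlapped, with a difference of -0.21 ± 0.26, which was -0.40 without vehicle 1, -0.02 without vehicle 2 and 0.00 without phenylbutazone 1. Probe 2 read -5.19, -5.29 and -4.78 in vehicle and -6.43, -6.07 and -6.40 in phenylbutazone. It was well above background on 2 of 3 vehicle and 0 of 3 phenylbutazone arrays. The approximate bound, found in the same way, was 1.39-fold higher in vehicle. Probe 3 was well above background on 0 of 6 arrays. Gli1 probe 2 thus had groups that lay apart while probe 1 did not, though the 2 probes were about equally dim in vehicle (means of -5.09 and -5.13). The bounds of Gli1 probe 2 and Ptch1 probe 3 rest on intensities of at most 40.1.

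Hhip, which encodes a surface protein that binds and sequesters Hedgehog ligands, stood on the other side of 0 from Ihh. Its 1 probe read -5.20, -3.31 and -5.53 in vehicle 1, 2 and 3, against -4.15, -4.04 and -3.36 in phenylbutazone 1, 2 and 3. Vehicle 2 was as high as the highest treated animal, so the groups overlapped and the difference of 0.83 ± 0.59 had a wide error. Vehicle 1 and 3 were near background, with intensities of 25.8 and 20, and vehicle 1 was not called well above it. The SD of the vehicle group was 1.20. The Hhip difference was 1.68 against vehicle 3 alone, 1.52 without vehicle 2, 0.41 without vehicle 3 and 0.32 with normexp. On their probes of highest mean over all arrays Ptch1 and Gli1 thus differed by -0.11 and -0.21, and Hhip by 0.83 on its 1 probe. Each treated animal lay below each vehicle animal on Ptch1 probe 3 and Gli1 probe 2, which were left untested because they were above background on 2 vehicle arrays alone.

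**Figure D2:**
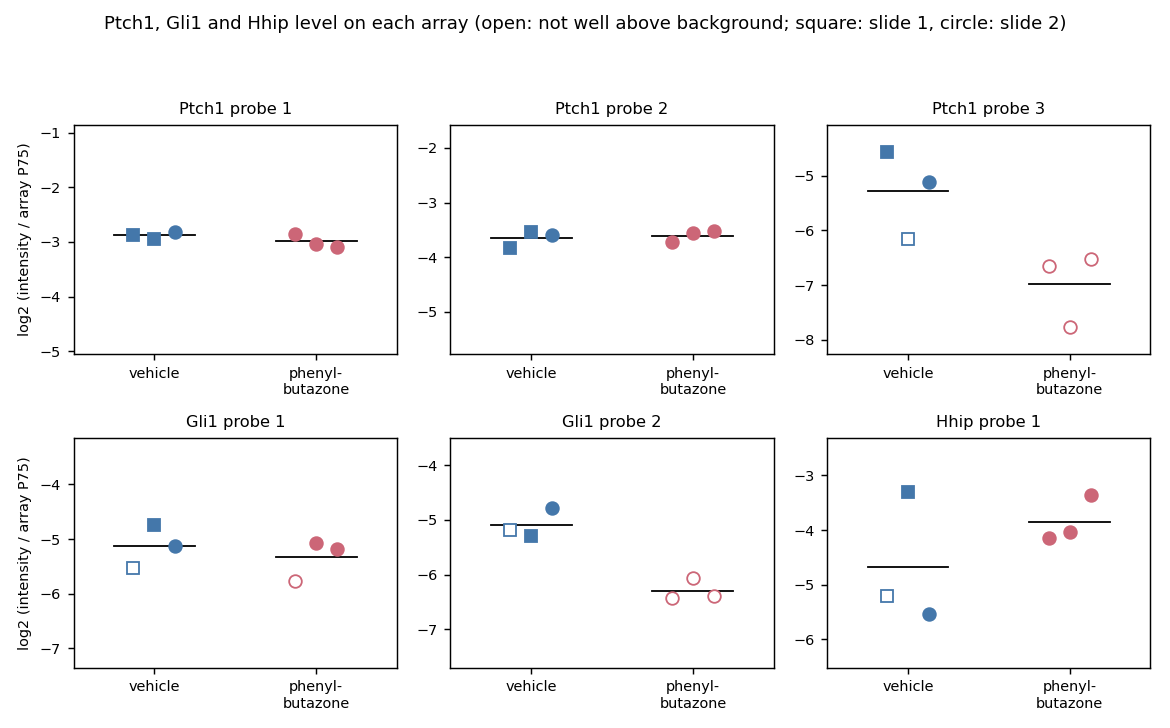
Level of Ptch1, Gli1 and Hhip probes on each array (log2 of intensity over the array's 75th percentile; equal spans), with open symbols where the probe was not well above background, squares for slide 1 and circles for slide 2. Ptch1 probes 1 and 2, Gli1 probe 1 and Hhip overlap between groups, and Ptch1 probe 3 and Gli1 probe 2 lie apart with 0 of 3 treated arrays above background.

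Smo, which encodes the membrane protein that passes the signal inward, did not differ beyond its error. Probe 1 read -1.38, -1.40 and -0.74 in vehicle and -0.94, -1.28 and -1.31 in phenylbutazone, a difference of 0.00 ± 0.22, and probe 2 differed by -0.20 ± 0.24. Vehicle 3 read 0.65 above the mean of vehicle 1 and 2 on probe 1 and 0.77 above on probe 2, so that against vehicle 3 alone the differences were -0.44 and -0.72, and without vehicle 3 probe 1 stood at 0.21. Slide and treatment cannot be told apart in full here, since slide 2 holds 1 vehicle array.

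Gli2, the main activator among the Gli factors, was well above background on 3 of 3 vehicle arrays and 1 of 3 phenylbutazone arrays with probe 1. It read -5.00, -5.24 and -5.57 in vehicle and -5.73, -5.19 and -5.89 in phenylbutazone, with overlapping groups and a difference of -0.33 ± 0.23, or -0.03 against vehicle 3 alone and -0.49 without it. Gli2 probe 2 and all 4 probes of Gli3, which encodes the main repressor, were well above background on 0 of 6 arrays. Gli3 was therefore the 1 member of 9 not tested, and its level could not be followed at this signal over background. In all, 16 of the 25 member probes were tested, 7 were never well above background and 2 were above it on 2 arrays.

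**Figure D3:**
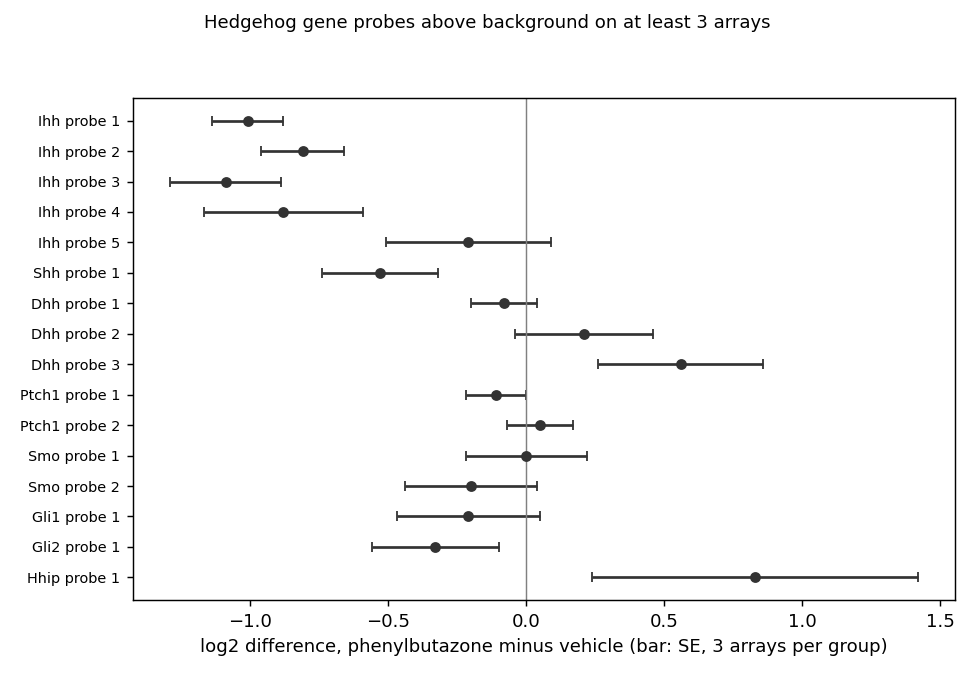
Log2 difference, phenylbutazone minus vehicle, of the 16 tested probes of 8 Hedgehog genes; points are differences of means of 3 arrays and bars are SE. Ihh probes 1 to 4 lie between -1.09 and -0.81, and the probes of Ptch1, Smo and Gli1 lie within 0.21 of 0.

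Other genes of the pathway were taken as 4 lists by role, 59 genes in all, of which 44 were on the array by symbol and 42 were tested. None passed: 0 of 42 were called by limma at an adjusted p under 0.05, as were 0 of all 29938 genes (0%), 4 of the 42 had an unadjusted p under 0.05, and an intensity trend also called 0. The 42 genes had a median difference of 0.014, against 0.015 over all genes tested, with 23 higher and 19 lower. The groups did not overlap for 8 of them (19.0%), against 21.5% of all genes. In 5 phenylbutazone was the higher group, as in 12.1% of all genes, and in 3 the lower, as in 9.39%.

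Among 5 tested genes that release or carry the ligand, the groups overlapped on the probe that stands for the gene, the one of highest mean level. Disp1, which encodes the protein that releases lipid-modified Hedgehog from the cell, differed by 0.12 ± 0.12, and the other 4 (Scube3, Adam17, Gpc3 and Gpc4) by -0.15 to 0.03. Another probe of Gpc4, a glypican gene, stood at -0.27 with groups apart. The co-receptor gene Cdon was not well above background on 3 arrays.

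Of the 20 intracellular and ciliary regulators 5 (25%) had groups apart on the probe that stands for the gene, near the 21.5% of all genes tested. Their differences were at most 0.34 in size. Sufu, which encodes the inhibitor that holds Gli factors in the cytoplasm, stood at -0.14 ± 0.097 and Evc, whose protein passes the signal on from Smo at the base of the cilium, at -0.28 ± 0.11. Higher in phenylbutazone were the kinase genes Csnk1a1 (0.34 ± 0.14) and Gsk3b (0.12 ± 0.10), whose products mark Gli factors for processing, and Arl13b (0.23 ± 0.12), which encodes a GTPase of the ciliary membrane. Limma adjusted p values of these 5 were 0.393 to 0.669. Other Evc probes stood at -0.39 and -0.07, other Csnk1a1 probes at 0.25 and 0.01 and another Arl13b probe at 0.16. Among regulators whose main probe overlapped, other probes had groups apart for Prkaca, the gene of a protein kinase A catalytic subunit (-0.19 and -0.34, main probe 0.01), and for Kif7, a ciliary kinesin gene (0.29, main probe 0.38). Against vehicle 3 alone Csnk1a1 differed by 0.06 and Gsk3b by 0.02.

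Among the 17 reported targets, genes described as responding to Hedgehog in other tissues, 3 (17.6%) had groups apart on the probe that stands for the gene. The share over all genes tested was 21.5%, and the 3 did not share a direction. Another probe of Rab34, a GTPase gene, also had groups apart, at -0.26 (main probe -0.02). Pthlh, the parathyroid hormone-like gene that Ihh maintains in growing cartilage, read -2.79, -2.78 and -2.09 in vehicle and -2.87, -3.46 and -3.68 in phenylbutazone. The groups lay apart only narrowly, with a difference of -0.78 ± 0.28 (limma adjusted p = 0.372, 0.0869 to 0.717 over alternatives). The Pthlh difference was -1.24 against vehicle 3 alone, -0.55 without vehicle 3 and -0.46 with normexp. Grem1, which encodes the secreted BMP antagonist Gremlin 1, read 0.29, -0.05 and 0.12 in vehicle and 1.04, 1.19 and 0.79 in phenylbutazone. Its groups lay clearly apart, with a difference of 0.89 ± 0.15 (limma adjusted p = 0.199, 0.0768 to 0.502 over alternatives), and a second Grem1 probe stood at 1.11. Igfbp6, an insulin-like growth factor binding protein gene, read -4.73, -4.54 and -4.54 in vehicle and -3.97, -3.85 and -3.71 in phenylbutazone, a difference of 0.76 ± 0.12 (limma adjusted p = 0.173, 0.0493 to 0.502 over alternatives), or 0.36 with normexp. Bmp4, whose product Gremlin 1 binds, stood at -0.06 ± 0.22, and the cyclin gene Ccnd1 at 0.37 ± 0.23, both with overlapping groups.

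**Figure D4:**
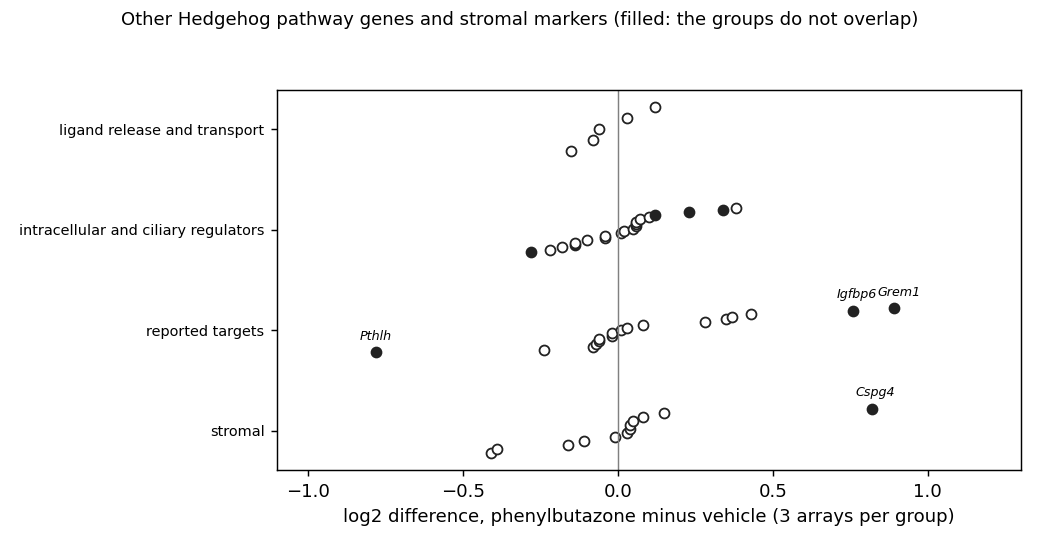
Log2 difference, phenylbutazone minus vehicle, of 42 other Hedgehog pathway genes in 3 lists and of 12 stromal markers; filled points are genes whose groups of 3 arrays do not overlap. Pthlh lies at -0.78 and Grem1 and Igfbp6 at 0.89 and 0.76, and the stromal gene Cspg4 at 0.82, while most genes lie near 0.

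In tissue RNA, fewer cells of a type and less RNA per cell cannot be told apart. Stromal markers, the cells in which Gli1 is expressed, had a median difference of 0.034 over 12 of 14 genes tested, 7 higher and 5 lower. Only Cspg4, a pericyte gene, had groups apart (0.82 ± 0.25, limma adjusted p = 0.320). Their summed intensities were 35.6 to 46.4 times the 75th percentile in vehicle and 37.1 to 45.0 in phenylbutazone, so the ranges overlapped. Markers of the proximal straight tubule, 8 of 8 tested, had a median of 0.089, 5 higher and 3 lower, and sums of 209 to 295 in vehicle and 212 to 327 in phenylbutazone. Most tubular injury markers stood on the other side of 0 from Ihh. Of 11 tested, 9 were higher and 8 (72.7%) had groups apart, all higher, against 12.1% of all genes with groups apart and higher. The lower ones were Havcr1 and Vcam1, at -0.19 each. Sums were 55.2 to 55.8 in vehicle and 101 to 141 in phenylbutazone, with the largest differences in Spp1 (2.02), Krt18 (1.41) and Clu (1.39). Erythrocyte markers were higher in 6 of 6 cases, but 0 of 6 had groups apart. Their sums overlapped, at 486 to 670 in vehicle and 572 to 914 in phenylbutazone. The part of injury and of blood content in the Ihh difference was not tested.

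The genes whose pattern over the 6 arrays was most like that of Ihh probe 1 were found among 12154 other tested genes with a symbol. By Pearson's r they were Atpaf1 (0.996), an assembly factor gene of mitochondrial ATP synthase, the metalloproteinase gene Mmp28 (0.991), the acetyltransferase gene Naa10 (0.987), the mitochondrial ribosome gene Mrpl49 (0.987) and the actin regulator gene Raph1 (0.986). All 5 had groups apart and lower in phenylbutazone, which every pattern like that of Ihh has by construction, and with 6 arrays and so many genes a high r is a description only. Mmp28 alone among them differed by a size near that of Ihh, at -0.86 ± 0.13, reading -3.31, -3.34 and -3.40 in vehicle and -4.07, -4.43 and -4.12 in phenylbutazone. The other 4 differed by -0.24 to -0.19.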

How the data were processed

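Renal cortex RNA of 6 rats, 3 per group and biological replicates per the series design, was read on 1 array each. Per the file headers and the submitters' processing notes, Agilent Feature Extraction 10.7 turned the images into spot values. The deposited scanner files hold the processed intensity of each spot, background-subtracted and detrended, not scaled between arrays. A series-wide table, also deposited, gives a ratio, found by comparison to be that intensity over the array's 75th percentile.

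Control spots (1439 of 62976) and 40 probes with an outlier flag were left out; 0 spots were saturated. Log2 intensities had each array's 75th percentile subtracted. Tested were the 41006 probes called well above background on 3 or more of the 6 arrays, each gene by its probe of highest mean (29938 genes). RefSeq accessions of GRCr8, used for names and promoters, named 28206 probes (45.8%). Differences were fitted with limma 3.58.1 in R 4.3.3 (lmFit, eBayes, two-sided, Benjamini-Hochberg over all genes), and the code was tested on simulated data. SE of member probes come from the fit over all 41006 probes, those of other genes from the fit over genes. Members and lists were chosen with earlier results of these data known. All members were named; of other pathway genes, per list up to 3 in each direction with groups apart, and the 5 genes most like Ihh by Pearson's r; Disp1, Gpc4, Cdon, Prkaca, Kif7, Bmp4, Ccnd1, Ccnd2, Rab34 and Cspg4 were added after their values were seen. A gene that was part of the pathway lists is not reported here. Normexp used the median spot intensity and an offset of 50. Alternatives are given in the closing section.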

Additional observations from a re-analysis of the deposited data

How the results depend on the processing

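The Ihh difference on probe 1 was -1.09 to -0.90 over 18 alternatives (other scalings, normexp, quantile normalization, the deposited ratios, other filters, an intensity trend, slide as a block, slide 2 alone, the replicate block and leaving out each replicate), and it moved by less than the spread between animals in all 18. Not all of them could move it. Other filters, the intensity trend and the replicate block leave this difference at -1.01 by construction, and the deposited ratios are the same values. Slide as a fixed block and slide 2 alone give the same contrast (-1.06). The median difference of the members was -0.16, with a range of -0.24 to -0.07. Limma called 0 genes in the main analysis, 1 with quantile normalization, 2 with normexp, 8 with an intensity trend, 1 with slide as a random block, and 0 to 814 when a replicate was left out. The 814 came without vehicle replicate 3, when treatment and slide divide the arrays alike. Of the other pathway genes 0 were called, and 0 to 2 when a replicate was left out, the 2 being Ccnd2 (0.86, limma adjusted p = 0.0266) and Igfbp6 (0.79, 0.0493), both without vehicle replicate 3. Ccnd2 differed by 0.43 over all 6 arrays, with overlapping groups, and by -0.41 on slide 2 alone. Replicate numbers did not pair the animals: deviations of same-numbered animals correlated at -0.07 to 0.01, and with the replicate block limma called 0 genes and Ihh differed by -1.01. Smo changed sign between settings (-0.44 to 0.21), as did Ihh probe 5 (-0.70 to 0.03). Hhip was 0.32 with normexp and 1.68 on slide 2 alone, the ends of its range. The normexp offset of 50 by itself shrinks log2 differences of a probe with intensities of 20 to 101, as Hhip had. Gli1 ranged from -0.40 without vehicle replicate 1 to 0.00 without phenylbutazone replicate 1. Why single arrays moved the differences of Smo, Ihh probe 5, Hhip and Gli1 was not tested. Low signal over background limits Gli1, Gli2, Gli3, Hhip and Shh, and Ptch1 on probe 3. Igfbp6 was dim as well, with a vehicle mean of -4.6 against -4.39 for Shh probe 1.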
